A study of Macaca mulatta with 6 samples.

Results

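The genes described here belong mostly to families known to build and reshape actin filaments, such as those inside dendritic spines. What they do in spines was not measured. They were chosen by symbol from the array's annotation: every probe set with exactly 1 gene symbol beginning with ARHGAP, ARHGEF, ARPC, CAPZ, WASF or VAV, or with PAK and a digit, together with 19 single genes that include RHOA, RAC1, CDC42, LIMK1, GSN, ACTB and STRN. This gave 133 probe sets for 67 genes, out of 52865 probe sets on the array and 14132 genes named by a measured probe set. No probe set carried RHOB, CFL1, CFL2 or LIMK2 as its only symbol, so neither cofilin, the filament-severing target of LIM kinase, was analysed here. Of the 133 probe sets, 4 were control probe sets for ACTB and 129 were measured like any other.

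The RNA is labelled as that of serotonin neurons of the dorsal raphe nucleus, a midbrain group whose fibers reach most of the forebrain, collected by laser capture from female rhesus macaques, with 1 array per monkey. The 6 monkeys formed 3 groups of 2, given estrogen with progesterone, estrogen alone or placebo, as steroid capsules under the skin for 1 month. The tag Ovx stands in the placebo titles only and was read as ovariectomized; hormone titles name just the treatment. Ages were not given in the sources used here, and 2 animals per group limit the precision of every difference. The question addressed by these groups is how ovarian steroids bear on gene expression in serotonin neurons.

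A dendritic spine is shaped by a branched mesh of actin filaments that is built and taken down continuously. Small GTPases act as switches on that mesh: exchange factors load them with GTP and turn them on, and GTPase-activating proteins turn them off. Active RAC1 and CDC42 act through PAK kinases, LIM kinase and the WASP family, which starts the actin-nucleating Arp2/3 complex, while RHOA favours contraction and retraction of the spine. Estrogen is known to alter spine density in several brain regions of adult animals.

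Background differed from array to array, and this touches every value below. Each array has 59 control probe sets against bacterial and tag sequences, which have no target in the sample, and their 95th percentile served as its floor. It lay at 74.9 and 283 with estrogen and progesterone, 30.0 and 51.6 with estrogen, and 216 and 221 with placebo. The second array of estrogen with progesterone and both placebo arrays held fewer probe sets above their floor than the mean of the 6 arrays and are called low-signal arrays, the other 3 high-signal arrays. In bulk RNA of this kind, fewer cells of a type and less RNA per cell cannot be told apart. Of the serotonin neuron markers named on the array, GATA3, FEV and GCH1 were above the floor on all 6 arrays. TPH2, the rate-limiting enzyme of serotonin synthesis, passed it on the estrogen arrays only, where the floors were lowest. Its signals were 12.5 and 243 with estrogen and progesterone, 54.0 and 63.2 with estrogen, and 126 and 210.5 with placebo. Both estrogen signals of TPH2 thus lay below both placebo signals. LMX1B passed the floor only on the second array of estrogen with progesterone, and HTR1A only on the second estrogen array. Glial transcripts were present on every array: GFAP of astrocytes gave 13706 and 756 with estrogen and progesterone, 12884 and 18296 with estrogen, and 5358 and 2224 with placebo. The captured material thus held glial RNA besides that of serotonin neurons.

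Most actin remodeling genes were detectable wherever the array had signal. Each gene was represented by its probe set with the highest mean, taken from those tested where it had any. Of the 67 genes, 56 and 29 were above the floor with estrogen and progesterone, 57 and 58 with estrogen, and 38 and 39 with placebo. These are 83.6% and 43.3%, 85.1% and 86.6%, and 56.7% and 58.2% of the genes, beside 68.8% and 34.0%, 79.1% and 74.6%, and 50.6% and 50% of all 14132 named genes. The share was thus above that of all genes on each of the 6 arrays and moved with it. There were 19 genes above the floor on every array: RHOA, RHOC, RAC1, CDC42, PAK1, PAK3, PAK5, ARPC2, WASF2, WASF3, ACTB, PFN1, PFN2, GSN, ARHGEF7, ARHGEF11, ARHGEF12, ARHGEF26 and VAV3. Only 4 were above it on none, namely RAC2, the Rac protein of blood cells, ARHGAP28, ARHGAP35 and ARHGEF16.

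**Figure D1:**
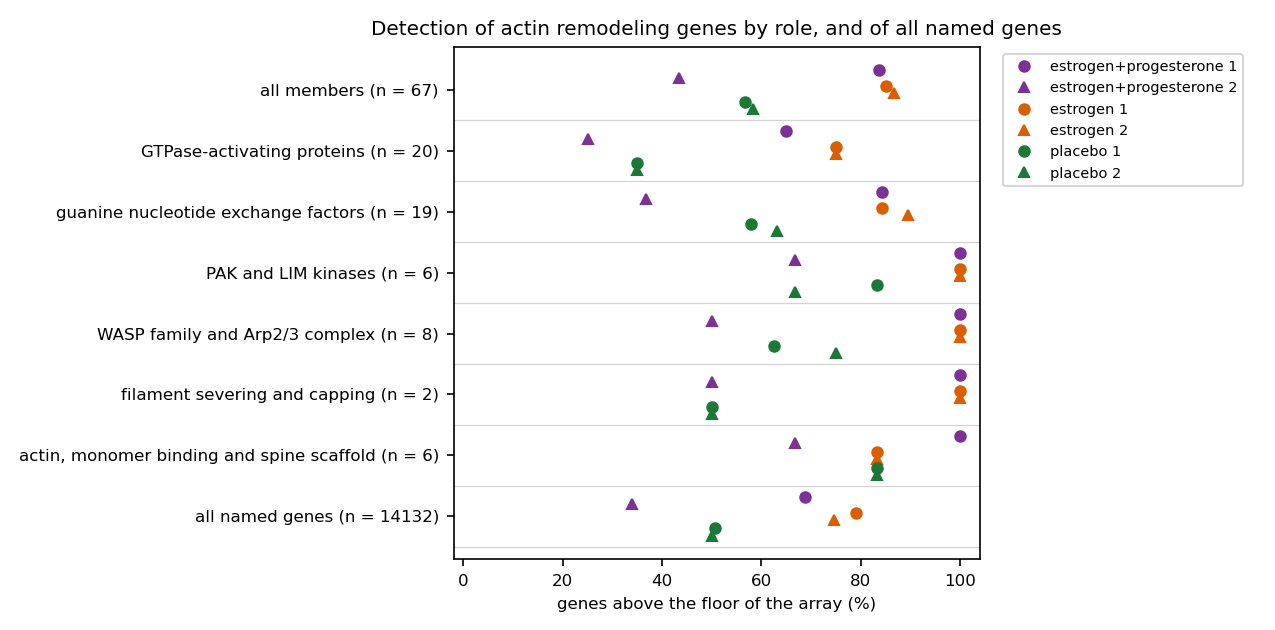
Percent of genes above the floor of each array (horizontal axis) for 6 roles, all 67 genes and all named genes, with 1 symbol per array, circles for replicate 1 and triangles for replicate 2, coloured by treatment. The second array of estrogen with progesterone has the lowest share over all 67 genes (43.3%), and the GTPase-activating proteins are the least often detected role, from 25% on that array to 75% on both estrogen arrays. The 6 genes drawn as PAK and LIM kinases include PAK1IP1, which is no kinase.

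The roles differed in detection. None of the 20 GTPase-activating proteins was above the floor on all 6 arrays, against 5 of 19 exchange factors, 3 of 5 PAK and LIM kinases and 3 of 8 WASP family and Arp2/3 genes. Where signal was high, 12 of 20 GTPase-activating proteins, 15 of 19 exchange factors and 8 of 8 WASP family and Arp2/3 genes passed the floor on each of the 3 arrays. Of all 14132 named genes, 2468 were above the floor on all 6 arrays and 8908 on each of the 3 high-signal arrays. PAK1IP1, which binds PAK1 and is no kinase, was chosen by its symbol and is left out of the kinase counts. These counts describe the probe sets on this array, whose levels cannot be compared between genes.

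Among the switches, RAC1, the GTPase that drives branched actin at the spine head, gave signals of 6495 and 964 with estrogen and progesterone, 8697 and 9470.4 with estrogen, and 3701 and 5358 with placebo. RHOA gave 2947 and 418 with estrogen and progesterone, 2222 and 2650.2 with estrogen, and 828 and 1286 with placebo. CDC42, the GTPase of filopodia, gave 4684 and 679.9 with estrogen and progesterone, 4641 and 2939 with estrogen, and 3230.1 and 522 with placebo. On these probe sets the deposited signal on the second array of estrogen with progesterone was several times below that on the first in all 3 genes. On the quantile-normalized log2 scale RAC1 stood at 11.76 on the first and 11.43 on the second. CDC42 stood there at 11.33 and 10.47, and RHOA at 10.79 and 8.9. Both estrogen arrays of RAC1 and RHOA lay above both placebo arrays on the scale of deposited signals. After quantile normalization that gap nearly closed: estrogen minus placebo came to a log2 difference of 0.14 for RAC1, 0.05 for RHOA and 0.36 for CDC42. Other CDC42 probe sets varied, and 1 gave 1034 and 1115 with estrogen and progesterone. Over the tested CDC42 probe sets estrogen minus placebo ranged from -1.25 to 2.75, and at both ends the groups did not overlap.

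**Figure D2:**
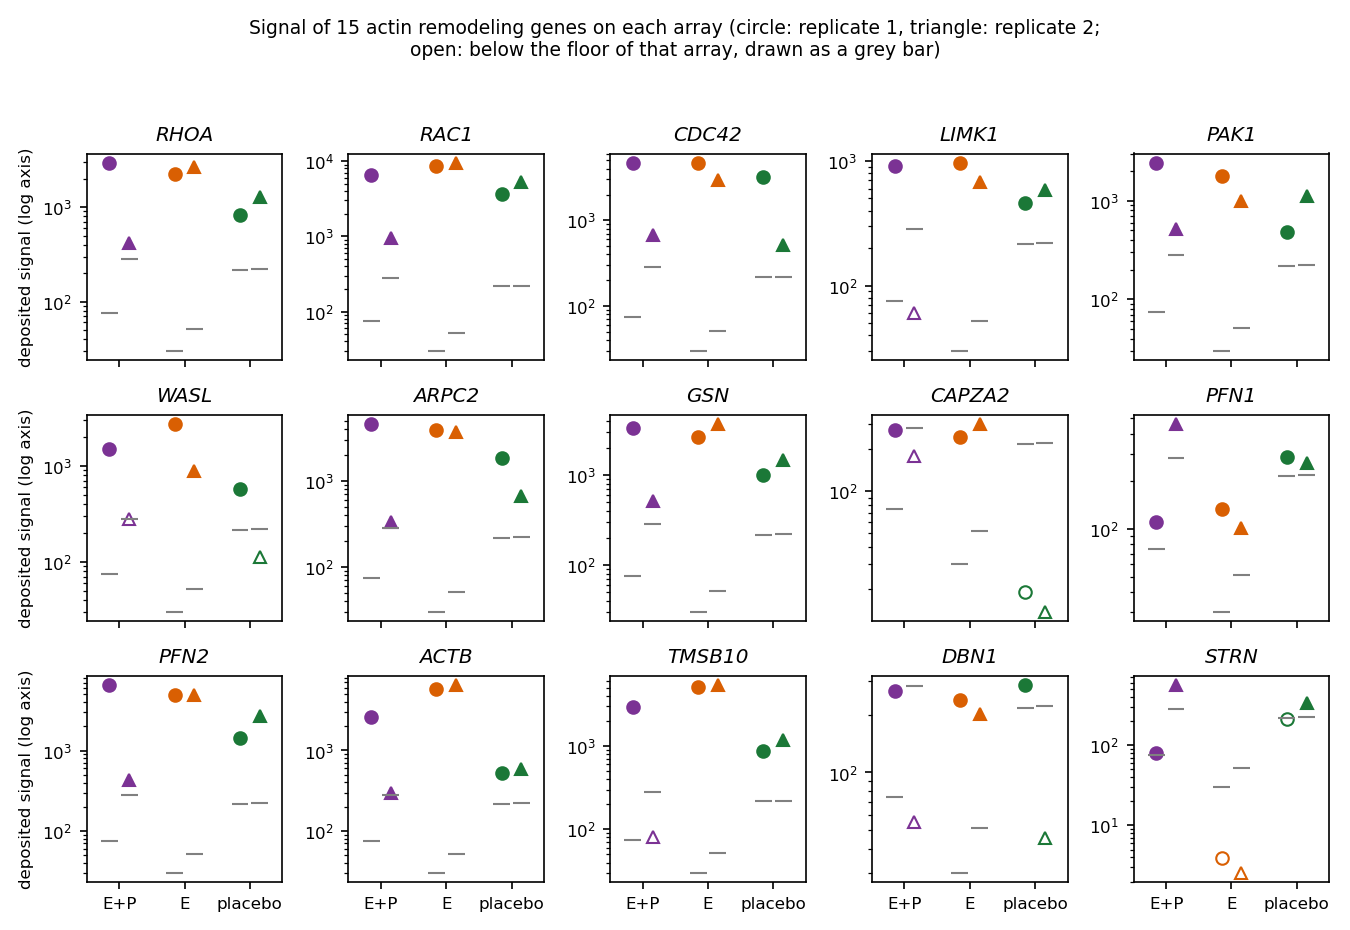
Deposited signal (vertical log axis) of 15 actin remodeling genes on each of the 6 arrays, with circles for replicate 1, triangles for replicate 2, open symbols for values below the floor of that array and a grey bar for the floor. For CAPZA2 both placebo values are open and both estrogen values filled, and for STRN both estrogen values are open; for RAC1, ARPC2, ACTB and TMSB10 the triangle of estrogen with progesterone lies far below its circle.

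The regulators of these switches were less uniform across arrays. ARHGEF7, an exchange factor for RAC1 and CDC42 that binds PAK kinases, gave 631 and 469.7 with estrogen and progesterone, 685 and 965 with estrogen, and 373 and 383 with placebo. Its signals on all 4 hormone arrays lay above both placebo signals on this probe set, and its normalized log2 differences from placebo were 0.49 with the combined treatment and 0.65 with estrogen. A second ARHGEF7 probe set gave 371 and 314 with estrogen and progesterone, 749 and 928 with estrogen, and 511 and 219 with placebo, and there the combined treatment overlapped placebo. ARHGAP36, an atypical member of its family known as an inhibitor of protein kinase A, gave 1275 and 254 with estrogen and progesterone, 1269 and 402 with estrogen, and 313 and 1059 with placebo. ARHGAP19, a GTPase-activating protein for RHOA, gave 539 and 164 with estrogen and progesterone, 567 and 417 with estrogen, and 746 and 328 with placebo. The groups overlapped for both.

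Of the kinases downstream of RAC1 and CDC42, the 3 with the highest mean signal had lower values on the second array of estrogen with progesterone than on the first, whereas PAK5 and PAK6 had higher ones. For PAK5 this depended on the probe set: another gave 302 on the first of these arrays and 26.1, below the floor, on the second. PAK3, a PAK kinase of neurons, gave 2138 and 599 with estrogen and progesterone, 2645 and 1563 with estrogen, and 1333 and 609 with placebo. PAK1 gave 2415 and 511 with estrogen and progesterone, 1790.1 and 994 with estrogen, and 486 and 1125 with placebo. LIMK1, the LIM kinase that switches off cofilin by phosphorylation, gave 906 and 60.7 with estrogen and progesterone, 964 and 683 with estrogen, and 462 and 581 with placebo. The single low LIMK1 value, on the second array of estrogen with progesterone, was below that array's floor. A second LIMK1 probe set ran the other way, at 109.9 and 488 with estrogen and progesterone, 52.8 and 38.2 with estrogen, and 206 and 245 with placebo.

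In the branching machinery, ARPC2, a core subunit of the Arp2/3 complex, gave 4599 and 330.0 with estrogen and progesterone, 3917 and 3717 with estrogen, and 1860 and 669.8 with placebo. WASL, the neural WASP protein that couples CDC42 to Arp2/3, gave 1492 and 279 with estrogen and progesterone, 2748 and 884 with estrogen, and 574 and 113 with placebo. WASF3, a WAVE protein acting below RAC1, gave 3044 and 299 with estrogen and progesterone, 2426 and 1707 with estrogen, and 348 and 1029 with placebo. On these 3 probe sets deposited estrogen signals lay above placebo signals without overlap, but after normalization the groups overlapped in each. Of the pair given estrogen with progesterone, the first array lay within or above the estrogen range and the second within or below the placebo range. Other tested probe sets differed. For ARPC2, 1 gave 574 and 1026 with estrogen and 120 and 188, both below the floor, with placebo. It stayed apart after normalization, with a log2 difference of 2.47. Another of ARPC2 and another of WASL overlapped already as deposited signals.

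Among the genes that cut, cap and bind actin, GSN, the filament-severing protein gelsolin, gave 3307 and 514 with estrogen and progesterone, 2666 and 3700.0 with estrogen, and 1013 and 1477 with placebo. CAPZA2, a subunit of the protein that caps the growing end of filaments, gave 273 and 179.9 with estrogen and progesterone, 243 and 302 with estrogen, and 19.2 and 13.7 with placebo. Both placebo values of CAPZA2 were below the floor, as was the second value of estrogen with progesterone. ACTB, cytoplasmic beta-actin, gave 2631 and 293 with estrogen and progesterone, 5793 and 6503 with estrogen, and 529 and 587 with placebo. TMSB10, a thymosin that holds actin monomers in reserve, gave 2965 and 81.3 with estrogen and progesterone, 5111 and 5366 with estrogen, and 860.2 and 1167 with placebo. On these probe sets the estrogen signals of ACTB and TMSB10 were thus above those of the other 4 arrays. A second TMSB10 probe set gave 1073 and 276 with estrogen and progesterone, 1159 and 891 with estrogen, and 536 and 653 with placebo. There the combined treatment overlapped estrogen. The 3' control probe set of ACTB, given below, was highest on the first array of estrogen with progesterone.

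The profilins, which feed actin monomers to growing filaments, ran differently across the arrays. PFN2, the neuronal profilin, gave 6541 and 427 with estrogen and progesterone, 4956 and 4909 with estrogen, and 1416 and 2717 with placebo. PFN1 gave 111 and 462 with estrogen and progesterone, 135 and 101 with estrogen, and 287 and 263 with placebo, with its lowest values on the 3 high-signal arrays. DBN1, drebrin, which stabilizes actin filaments in spines, gave 264 and 55.2 with estrogen and progesterone, 238 and 200.3 with estrogen, and 285 and 45.9 with placebo, so that neither treatment pair stood clear of placebo. STRN, striatin, a calmodulin-binding scaffold of spines that also binds membrane-associated estrogen receptor alpha, gave 80.4 and 559.5 with estrogen and progesterone, 3.93 and 2.55 with estrogen, and 213 and 334 with placebo. Both estrogen values of this STRN probe set were below the floor, and so was its first placebo value. The other STRN probe set, too weak to be tested, gave 34.6 and 153 with estrogen and progesterone, 64.8 and 12.9 with estrogen, and 60.2 and 108 with placebo, with only the first estrogen value above the floor. Its mean normalized log2 values of 6.38, 6.2 and 6.09 in these groups lay close together.

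For tests, signals were taken as log2(signal + 16), quantile normalized and fitted over all 6 arrays with limma. A filter at the 50th percentile of the mean signal passed 86 of the 129 member probe sets (66.7%) and 55 of the 67 genes. The 12 genes with no tested probe set were ARHGAP10, ARHGAP15, ARHGAP23, ARHGAP27, ARHGAP28, ARHGAP31, ARHGAP33, ARHGAP35, ARHGEF15, ARHGEF16, ARPC1B and RAC2. The moderated standard error of a difference had a median of 0.945 on the log2 scale. It pools the spread within all 3 groups, so a probe set has the same standard error in each comparison. The fit takes that spread as equal between groups, although the gaps within pairs, given below, were uneven. Differences are on the log2(signal + 16) scale, which understates those of low signals. The 3 comparisons share arrays, so their values for a gene are not independent.

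Estrogen with progesterone against estrogen alone asks what progesterone adds. No member probe set passed an adjusted p of 0.05 in limma, 0 of 86, beside 0% of the 26383 probe sets tested, and the smallest adjusted p of a member was 0.799. At an unadjusted p under 0.05, 1 member probe set was higher (1.16%, beside 1.48% of all tested) and 2 were lower (2.33%, beside 0.277%). The groups did not overlap for 8 members higher (9.3%, beside 17.6%) and 17 lower (19.8%, beside 16.6%). By gene, 16 of 55 differences were above 0 with a median of -0.64, beside 3326 of 9781 and a median of -0.44 over all named genes.

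In all, 3 members met the rule for higher genes, that is, groups that did not overlap and a log2 difference of at least 1. Without the size limit the groups did not overlap for 6 genes higher and 10 lower of 55, beside 1316 and 1752 of 9781 named genes. How many of all named genes met the full rule was not counted in any comparison. STRN differed by 3.77 ± 1.05 (SE, n = 2 and 2; limma, unadjusted p = 0.005), at least 3.85-fold, on the probe set tested. The first array of estrogen with progesterone was barely above its floor, at 80.4 against 74.9. The bound thus rests mainly on the second, low-signal array, at 559.5. For such a bound each array of the dimmer group counts at its floor, or at its own value where that is larger, and nothing is allowed for the spread between animals. A bound is given only where both arrays of the brighter group were above their floor. ARHGEF12, an exchange factor for RHOA, gave 144 and 824 with estrogen and progesterone, 65.6 and 59.2 with estrogen, and 226 and 344 with placebo, a log2 difference of 2.40 ± 1.12 between the hormone groups. ARHGEF10L, another exchange factor, gave 124 and 511 with estrogen and progesterone, 22.6 and 124 with estrogen, and 375 and 531 with placebo, with a difference of 1.73 ± 0.99. Its second probe set gave -1.85.

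In the other direction 6 members met the rule. ACTB differed by -2.56 ± 1.01 (limma, unadjusted p = 0.0302) and TMSB10 by -3.15 ± 1.33 (limma, unadjusted p = 0.0397). The second TMSB10 probe set gave -0.86. ARHGEF37 gave 415 and 121 with estrogen and progesterone, 643 and 1139 with estrogen, and 154 and 261 with placebo, and differed by -1.79 ± 0.98. ARHGEF25, an exchange factor of the RHOA pathway, differed by -1.42 ± 0.91. VAV2, an exchange factor switched on by receptor tyrosine kinases, gave 159 and 38.1 with estrogen and progesterone, 211 and 207 with estrogen, and 412 and 263 with placebo, and differed by -1.54 ± 1.01, while 1 of its other probe sets gave 0.62. ARPC1A, an Arp2/3 subunit, gave 443 and 67.7 with estrogen and progesterone, 543 and 891 with estrogen, and 53.4 and 341 with placebo, and differed by -1.85 ± 1.22. The adjusted p of all 9 genes was 0.799 in limma.

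In this comparison 0 of the 7 tested WASP family and Arp2/3 genes were above 0, with a median of -1.09 and a range of -1.85 to -0.18, and none passed the test. Of other roles, 5 of 12 GTPase-activating proteins were above 0 (median -0.48), as were 5 of 17 exchange factors (-0.64), 3 of 5 PAK and LIM kinases (0.09) and 2 of 6 genes of actin, monomer binding and scaffold (-1.12). These values rest on the second array of estrogen with progesterone. Without it, 30 of 54 member genes were above 0 with a median of 0.04, beside 0.05 over all named genes, and 3 of 7 WASP family and Arp2/3 genes were (median -0.03). Without the first array of that pair, which leaves the low-signal array alone in its group and assumes that it varies like the others, limma called 9 of 79 members (11.4%) at an adjusted p between 0.0347 and 0.0392, beside 13.6% of all tested. The 9 were STRN at 5.04 and ARHGEF12 at 3.83, and TMSB10 at -5.24, ACTB at -3.69, LIMK1 at -3.44, ARHGEF4 at -4.10, and single probe sets of ARPC2 at -3.41, CDC42 at -3.34 and ARHGEF10L at -3.30. Without the second array instead, the differences were -0.87 for TMSB10, -1.29 for ACTB, 0.76 for ARHGEF12 and 0.72 for ARHGEF10L, and -0.75 for ARHGEF37, -0.51 for ARHGEF25, -0.29 for VAV2 and -0.44 for ARPC1A. STRN was then too weak to be tested. Leaving out any array but the first of that pair called 0 members.

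**Figure D3:**
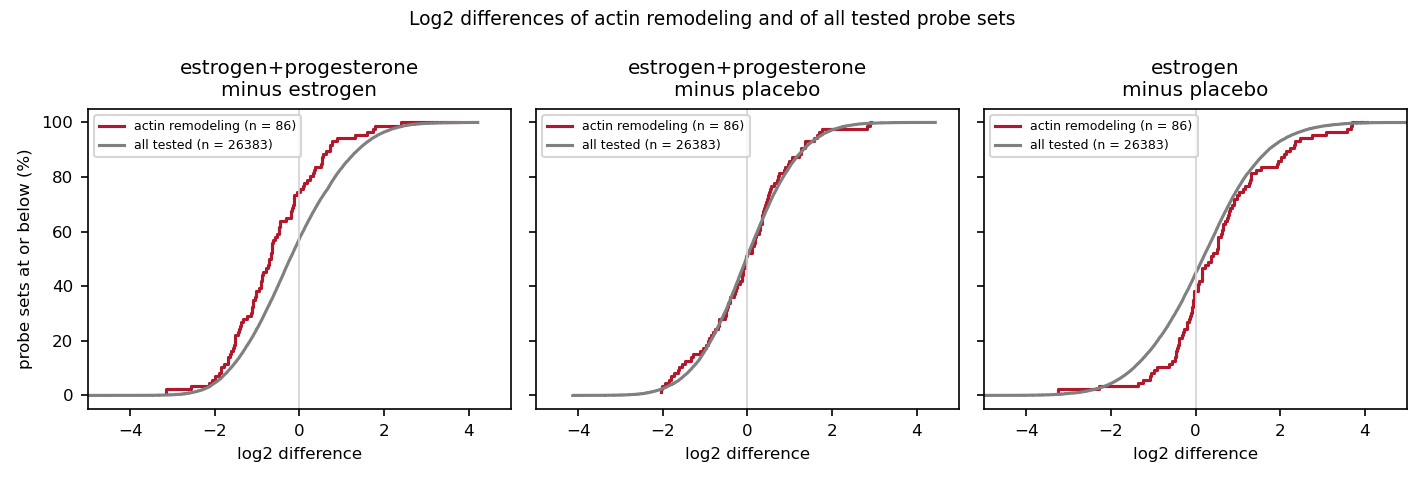
Cumulative percent of probe sets (vertical axis) at or below each log2 difference (horizontal axis) in the 3 comparisons, for the 86 tested actin remodeling probe sets and all 26383 tested. The median of the members is -0.68 against -0.22 for all tested in estrogen with progesterone minus estrogen, -0.02 against -0.03 in estrogen with progesterone minus placebo, and 0.38 against 0.17 in estrogen minus placebo.

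The spread within pairs was uneven. The median size of the gap between the 2 arrays of a group, over the 55 genes on the normalized log2 scale, was 1.89 for estrogen with progesterone, 0.40 for estrogen and 1.02 for placebo, beside 1.55, 0.36 and 0.88 over all named genes. A gap of more than 2, a 4-fold difference between 2 monkeys on the same treatment, was found for 24 member genes with estrogen and progesterone, 0 with estrogen and 8 with placebo (43.6%, 0% and 14.5% of the 55). Over all named genes the shares were 37.6%, 0.746% and 15.2%. For WASP family and Arp2/3 genes the median gap with estrogen and progesterone was 2.75, with the first array higher for 7 of 7. For the genes of actin, monomer binding and scaffold it was 2.78.

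Estrogen with progesterone against placebo asks what the combined treatment does. Again 0 of 86 member probe sets passed an adjusted p of 0.05 in limma, beside 0% of all tested, with a smallest adjusted p of 0.992. At an unadjusted p under 0.05, 3 members were higher (3.49%, beside 2.05% of all tested) and 0 lower (beside 1.25%). The groups did not overlap for 10 members higher (11.6%, beside 12.4%) and 8 lower (9.3%, beside 12.3%). By gene, 30 of 55 differences were above 0 with a median of 0.15, beside 4517 of 9781 and -0.10 over all named genes. Without the second array of estrogen with progesterone the median was 0.44, and without the first it was -0.46, beside 0.35 and -0.43 over all named genes. By role, 6 of 12 GTPase-activating proteins were above 0 (median -0.04), 10 of 17 exchange factors (0.42), 3 of 5 PAK and LIM kinases (0.10), 3 of 7 WASP family and Arp2/3 genes (-0.05) and 3 of 6 genes of actin, monomer binding and scaffold (-0.02).

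Here 6 members met the rule for higher genes. Without the size limit the groups did not overlap for 8 genes higher and 6 lower of 55, beside 1147 and 1239 of 9781 named genes. CAPZA2 differed by 2.93 ± 0.85 (limma, unadjusted p = 0.00652). Only 1 of the 2 arrays of estrogen with progesterone was above the floor for CAPZA2, so no bound is given. ARHGEF25 gave 375 and 147 with estrogen and progesterone, 521 and 782 with estrogen, and 92.9 and 62.8 with placebo. It differed by 1.66 ± 0.91. Its second value with estrogen and progesterone and both placebo values were below the floor, so no bound is given. WASF1, a WAVE protein of neurons, gave 611 and 426 with estrogen and progesterone, 1018 and 525 with estrogen, and 172 and 354 with placebo, and differed by 1.26 ± 0.88. The other 3, RAC3, the neuronal Rac protein, the exchange factor ARHGEF33 and the kinase PAK6, differed by 1.04 to 1.35 with standard errors of 0.86 to 0.99. RAC3 did not pass the floor with placebo, nor on the second array of estrogen with progesterone, so its difference is one between values near background and allows no bound.

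The rule for lower genes was met by 5 members. ARHGEF1, a RHOA exchange factor activated by G proteins, gave 589 and 163 with estrogen and progesterone, 378 and 423 with estrogen, and 767 and 704 with placebo, and differed by -2.05 ± 0.94. ARHGEF5 gave 50.7 and 81.1 with estrogen and progesterone, 80.9 and 49.5 with estrogen, and 249 and 298 with placebo, and differed by -1.63 ± 0.83, at least 1.46-fold lower. VAV2 differed by -1.85 ± 1.01, ARPC5L, an Arp2/3 subunit, by -1.55 ± 1.01 and ARHGAP9 by -1.06 ± 0.82. Another probe set of each of the last 3 lay on the other side of 0, at 0.17 for VAV2, 2.82 for ARPC5L, and 0.27 and 1.70 for ARHGAP9. The adjusted p of all 11 genes was 0.992 in limma. Without the second array of estrogen with progesterone the differences were 2.72 for ARHGEF25, -1.03 for ARHGEF1, -0.63 for VAV2 and -0.20 for ARPC5L, and without the first they were 0.71, -2.98, -3.09 and -2.79 for these genes. CAPZA2 was too weak to be tested without the first.

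**Figure D4:**
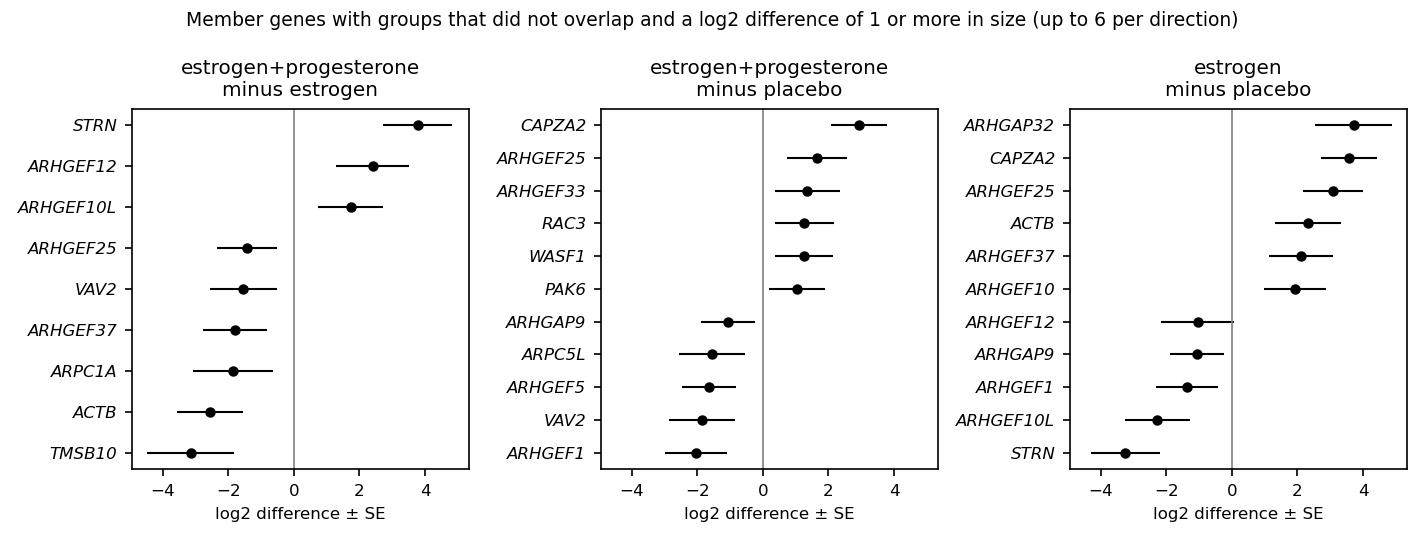
Log2 difference with its standard error (horizontal axis) of the member genes with groups that did not overlap and a difference of 1 or more in size, up to 6 per direction, in each of the 3 comparisons. None passed an adjusted p of 0.05; CAPZA2 and ARHGEF25 lie above 0 in both comparisons with placebo, and STRN lies above 0 where estrogen is subtracted and below 0 for estrogen minus placebo.

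Estrogen against placebo compares both high-signal estrogen arrays with both low-signal placebo arrays, and within it treatment and signal level cannot be told apart. In limma 0 of 86 member probe sets passed, beside 0% of all tested, with a smallest adjusted p of 0.635. At an unadjusted p under 0.05, 8 members were higher (9.3%, beside 4.59% of all tested) and 2 lower (2.33%, beside 3.24%). The groups did not overlap for 27 members higher (31.4%, beside 29%) and 10 lower (11.6%, beside 24.8%). By gene, 35 of 55 differences were above 0 with a median of 0.29, beside 5925 of 9781 and 0.28 over all named genes.

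The rule for higher genes was met by 14 member genes with estrogen, and the 6 with the smallest p are given. Without the size limit the groups did not overlap for 16 genes higher and 8 lower of 55, beside 2996 and 1935 of 9781 named genes. CAPZA2 differed by 3.57 ± 0.85 (limma, unadjusted p = 0.00194), at least 1.82-fold, and ARHGEF25 by 3.08 ± 0.91 (limma, unadjusted p = 0.00733), at least 3.22-fold. ARHGAP32, a GTPase-activating protein of the postsynaptic density, gave 435 and 35.2 with estrogen and progesterone, 425 and 932 with estrogen, and 53.2 and 30.3 with placebo. It differed by 3.71 ± 1.16 (limma, unadjusted p = 0.00993), at least 3.23-fold. ACTB differed by 2.32 ± 1.01 (limma, unadjusted p = 0.0454) and ARHGEF37 by 2.10 ± 0.98. ARHGEF10 gave 416 and 156 with estrogen and progesterone, 374 and 315 with estrogen, and 84.5 and 172 with placebo, and differed by 1.93 ± 0.93, at least 2.09-fold. Their adjusted p lay between 0.635 and 0.645 in limma.

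The rule for lower genes was met by 5. STRN differed by -3.25 ± 1.05 (limma, unadjusted p = 0.0114). Only 1 of 2 placebo arrays and no estrogen array was above the floor for STRN, so no bound is given. ARHGEF10L differed by -2.27 ± 0.99 (limma, unadjusted p = 0.0443), although its second probe set gave 0.22. ARHGEF1, ARHGAP9 and ARHGEF12 differed by -1.37 ± 0.94, -1.08 ± 0.82 and -1.04 ± 1.12. A further ARHGAP9 probe set gave 0.82. Their adjusted p in limma ran from 0.635 to 0.804.

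By role, estrogen minus placebo was above 0 for 6 of 7 WASP family and Arp2/3 genes (median 0.86), 3 of 5 PAK and LIM kinases (0.05) and 4 of 6 genes of actin, monomer binding and scaffold (0.63). It was above 0 for 6 of 12 GTPase-activating proteins (-0.05) and 8 of 17 exchange factors (-0.03). These directions depend on how array signal is handled. With each array centred on its median, 49 of 54 member genes were above 0 with a median of 1.78, beside 1.5 over all named genes. With the signal class as a covariate, which only the pair given estrogen with progesterone tells apart from treatment, 18 of 55 were above 0 with a median of -0.43, beside -0.50, and the WASP family and Arp2/3 genes stood at 2 of 7. ACTB was then -0.43, while limma with array weights called 6 of 86 members (6.98%, beside 1.64% of all tested), with CAPZA2, ARHGEF25 and ARHGAP32 above 0, STRN below it, and second probe sets of PFN2 at 3.66 and ARPC5L at 4.06.

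Those second probe sets, chosen after their values were seen, resembled CAPZA2. That of PFN2 gave 381 and 41.6 with estrogen and progesterone, 425 and 621 with estrogen, and 46.5 and 23.2 with placebo. That of ARPC5L gave 405 and 133 with estrogen and progesterone, 702 and 407 with estrogen, and 27.9 and 13.5 with placebo. In both, each low-signal array was below its floor, while the probe set with the higher mean of the same gene gave 0.15 for PFN2 and -0.46 for ARPC5L. Such disagreement was common: of the 21 genes with 2 or more tested probe sets, all probe sets of a gene had the same sign in 11 for estrogen with progesterone minus estrogen, 6 for estrogen with progesterone minus placebo and 7 for estrogen minus placebo.

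The ACTB control probe sets read 3 stretches of the same transcript. The 3' probe set gave 18359 and 814 with estrogen and progesterone, 16028 and 15778 with estrogen, and 12181 and 5219 with placebo, all above the floor. There were 2 probe sets for the middle, of which 1 gave 1436 and 50.5 with estrogen and progesterone, 1100.0 and 3160 with estrogen, and 343 and 226 with placebo. The other gave 1616 and 228.0 with estrogen and progesterone, 1648 and 3399 with estrogen, and 321 and 378 with placebo. The 5' one gave 541 and 40.3 with estrogen and progesterone, 512 and 1448 with estrogen, and 23.3 and 17.5 with placebo, which passed the floor on the 3 high-signal arrays and on none of the other 3. The 5' control of GAPDH, a glycolytic enzyme, was above the floor on those same 3 arrays only, whereas that of EEF1A1, a translation factor, was above it on all 6. The difference in ACTB between estrogen and placebo was accompanied by one in the signal at its 5' end, whose part in the result was not tested.

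**Figure D5:**
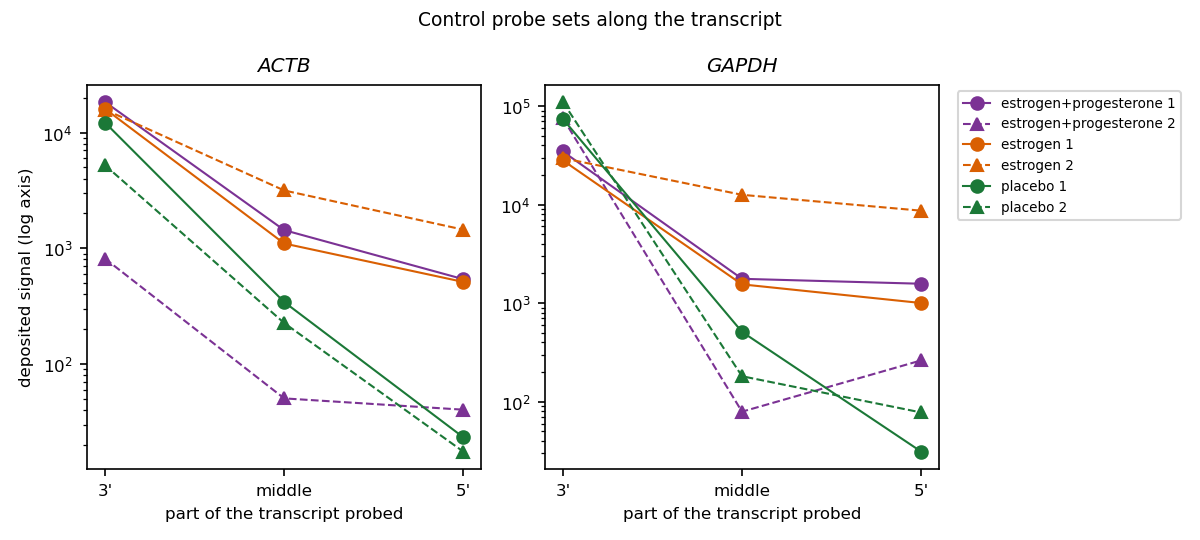
Deposited signal (vertical log axis) of control probe sets at the 3' end, middle and 5' end of ACTB and GAPDH on each array, coloured by treatment, with solid lines for replicate 1 and dashed lines for replicate 2. For ACTB the 5' value is 512 to 1448 on the 3 high-signal arrays and 17.5 to 40.3 on the other 3.

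Other genes of actin regulation, 79 listed by name, were named on the array in 51 cases and tested in 45. None passed in any comparison in limma. Estrogen with progesterone minus estrogen was above 0 for 11 of 45 (median -0.53), estrogen with progesterone minus placebo for 24 (0.08) and estrogen minus placebo for 32 (0.44). At an unadjusted p under 0.05 only MYH10 and EVL appeared. MYH10, a non-muscle myosin heavy chain that contracts actin in spines, gave 227 and 326 with estrogen and progesterone, 418 and 242 with estrogen, and 166 and 16.1 with placebo, with differences from placebo of 2.34 ± 0.95 and 2.58 ± 0.95 (limma, adjusted p = 0.992 and 0.635). Both placebo values of MYH10 were below the floor, so the bounds are at least 1.68-fold with the combined treatment and at least 1.98-fold with estrogen. EVL, which extends filaments, gave 4010 and 240.1 with estrogen and progesterone, 5108 and 3456 with estrogen, and 4929 and 3718 with placebo, and the combined treatment differed from placebo by -3.02 ± 1.16 (limma, adjusted p = 0.992). That EVL difference rests on the second array, where EVL was below the floor, and was -1.23 without it.

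Markers of other cells also differed between arrays, not all in the same way. The 10 named astrocyte genes, 9 and 6 of them above the floor with estrogen and progesterone, 9 and 10 with estrogen and 8 and 8 with placebo, summed to signals of 81659 and 4373 with estrogen and progesterone, 72143 and 86418 with estrogen, and 24978 and 24939 with placebo. The 6 named general neuronal genes summed to 24531 and 2298 with estrogen and progesterone, 27014 and 29820.0 with estrogen, and 7279 and 11971 with placebo, with 5 or 6 above the floor on each array. The 3 named oligodendrocyte genes were above the floor on each array and summed to 49417 and 2749 with estrogen and progesterone, 35802 and 52071 with estrogen, and 33133 and 46073 with placebo, so that the estrogen and placebo sums overlapped. Of 10 microglial genes, 7 and 3 were above the floor with estrogen and progesterone, 10 and 9 with estrogen, and 7 and 8 with placebo, and their signals summed to 5019 and 2267, 3726 and 3945, and 3174 and 3761 in these groups. Of 7 endothelial genes, 5 and 2 were above it with estrogen and progesterone, 6 and 6 with estrogen, and 3 and 4 with placebo, and they summed to 1447 and 1439, 869 and 990.0, and 1241 and 1718. The 2 named erythrocyte genes summed to 172 and 501 with estrogen and progesterone, 65.5 and 141 with estrogen, and 804 and 601 with placebo. The 8 named serotonin neuron genes summed to 1648 and 2375 with estrogen and progesterone, 1774 and 1063 with estrogen, and 2158 and 1997 with placebo. Of these 8, 5 and 4 were above the floor with estrogen and progesterone, 6 and 7 with estrogen, and 4 and 5 with placebo. All sums include values below the floor, which was highest on the low-signal arrays. The neuronal, astrocyte, oligodendrocyte and microglial sums were lowest on the second array of estrogen with progesterone, the endothelial and erythrocyte sums on the first estrogen array, and the serotonin neuron sum on the second estrogen array. No marker was at 0 on any array, and the part of glial RNA in the values of ACTB, GSN, TMSB10 and the other members, which glia also express, was not tested.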

How the data were processed

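The authors deposited 1 linear intensity per probe set and array, and the values show that arrays had been scaled to 1 target, with 2% trimmed means of 198.8 to 199.8. The sources used here name neither the summarization software nor detection calls. Names come from the platform annotation, updated by gene number: 24956 of 52766 had 1 symbol, 361 several and 27449 none, and 131 of the 133 member probe sets matched the RefSeq gene table. Members and lists were chosen with earlier results of these data known.

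Intensities were taken as log2(intensity + 16) and quantile normalized, since medians differed by over 0.1. Probe sets at or above the 50th percentile of the mean were fitted with limma 3.58.1 in R 4.3.3, 1 mean per group and 3 residual degrees of freedom, with two-sided tests, Benjamini-Hochberg adjustment over 26383 probe sets and a threshold of 0.05. An exact permutation test of 2 against 2 cannot go below 0.333. Named genes are, per comparison and direction, up to 6 with the smallest unadjusted p among those with groups that do not overlap and a log2 difference of 1 or more in size; 15 core genes and up to 3 per role with the highest mean have their signals given. The fit was run on simulated arrays with known differences and equal spread in all groups. That run cannot show how the fit behaves with pairs as uneven as those found here. Alternatives were the offset, the filter, the normalization, the signal class, array weights, a trended prior, other probe sets, a replicate block and leaving out each array. Replicate numbers did not pair the arrays, with correlations of deviations of -0.03, -0.06 and 0.08. Counts for 1 role list are not reported here.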

Additional observations from a re-analysis of the deposited data

How the results depend on the processing

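No member passed an adjusted p of 0.05 in limma under any alternative run except array weights (6 members for estrogen minus placebo, 434 probe sets in all) and leaving out the first array of estrogen with progesterone (for estrogen with progesterone minus estrogen, 9 members and 3599 in all; leaving out each array in turn gave 0 to 9 and 0 to 3599). Member probe sets at an unadjusted p under 0.05 numbered 3 for estrogen with progesterone minus estrogen, 3 for estrogen with progesterone minus placebo and 10 for estrogen minus placebo. In the first comparison they numbered 6 with median-centred arrays, 1 with an offset of 1, 1 with the signal class as a covariate, and 0 to 36 without each array in turn. In the second they numbered 0 with the filter at the 75th percentile, 6 with no filter, 25 with the signal class, and 1 to 21 without each array. In the third they numbered 17 with array weights, 2 with the stricter filter, 21 with median-centred arrays, 17 with no filter, and 0 to 16 without each array. In the first comparison the count was 36 without the first array of estrogen with progesterone, 0 without the second or without the second placebo array, and 1 without the first placebo array or either estrogen array. In the second it was 21 and 7 without the first and second array of estrogen with progesterone and 1 without either estrogen array. In the third it was 16 without the second array of estrogen with progesterone, 2 and 0 without the first and second estrogen array, and 6 without the second placebo array. The replicate block called 0 members and gave 4, 3 and 10 at an unadjusted p under 0.05. Single genes that crossed 0 in estrogen minus placebo under the signal class were ACTB (-0.43), ARHGEF37 (-0.13), ARHGEF10 (-0.0285) and ARHGEF12 (2.30), and under median-centring ARHGEF1 (0.39). Another probe set of the gene lay on the other side of 0 for ARHGEF10L (-1.85 in the first comparison, 0.22 in the third), VAV2 (0.62 in the first, 0.17 in the second), ARPC5L (2.82 in the second) and ARHGAP9 (0.27 and 1.70 in the second, 0.82 in the third). The cause of these shifts was not tested. A floor of 216 to 283 on the low-signal arrays limits what can be said of members with weak signals there.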
